A study of Mus musculus with 24 samples.

Results

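The genes described here encode the subunits of the mitochondrial respiratory chain (complexes I to IV) and of ATP synthase (complex V) in mouse liver. They were taken by symbol from the gene table, as the mitochondrial-genome genes for subunits of complexes I, III, IV and V and the nuclear Nduf, Sdh, Uqcr, Cox4 to Cox8 and Atp5 genes, with a mean of at least 1 TPM (a length-corrected measure of a gene's share of a library's transcripts) over the 24 libraries. Of 115 matching symbols, 93 passed that level, 13 of them encoded by the mitochondrial genome and 80 by nuclear genes, out of 10551 genes tested. The 80 nuclear rows include the pseudogene rows Ndufb4c and Cox7c-ps1, which stay in the counts, medians and sums below. The 22 symbols that did not pass were pseudogenes and paralogues, described with the paralogues near the end.

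Complexes I and II pass electrons from NADH and succinate to coenzyme Q, complex III passes them to cytochrome c and complex IV to oxygen, and complexes I, III and IV pump the protons that drive ATP synthase. All subunits of complex II and most subunits of the other complexes are nuclear gene products imported into mitochondria. The mitochondrial genome supplies 7 complex I subunits, cytochrome b of complex III, the 3 core subunits of complex IV and 2 ATP synthase subunits. It is transcribed as long polycistronic RNAs that are cut into shorter messages. In liver these complexes oxidise the NADH and other reducing equivalents made by fatty acid oxidation and the citric acid cycle, and PPARα and FoxO1 are transcription factors known for roles in fasting fat oxidation and in glucose production.

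The study compared liver RNA of mice lacking FoxO1 in liver (LFKO, FoxO1-/-), PPARα in liver (LPKO, PPARα-/-) or both (LFPKO) with wild-type controls (WT), on a high-fat diet (HFD) or a regular diet (RD) for 3 weeks, after a 4 h fast. The controls carried both floxed alleles, FoxO1lox/lox; PPARα lox/lox, and the labels do not say whether they carried Cre. Deletion was by an Albumin-Cre transgene, active in hepatocytes, so other liver cells keep both genes. Each of the 8 groups had 3 libraries of poly(A)-selected, strand-marked RNA, and neither sex, age nor whether the libraries came from separate mice is given, so the p-values measure the spread between these libraries. Comparisons were made with limma on log2(TPM + 1) over all 10551 genes, a gene was called at an adjusted p under 0.05, and fold changes are on that scale, which understates changes of low genes.

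Foxo1 was at 0.250 to 0.484 TPM in the 12 LFKO and LFPKO libraries, against 4.06 to 9.94 TPM in the 12 LPKO and WT libraries. Ppara was at 57.5 to 87.3 TPM in the LPKO and LFPKO libraries, against 37.1 to 68.8 TPM in the LFKO and WT libraries. The deleted part of Ppara is not given in the labels, so this level checks nothing about the LPKO and LFPKO labels. The 6 hepatocyte markers summed to 87700 to 93250 TPM in RD LFKO, 56940 to 63020 TPM in RD LPKO and 58500 to 70080 TPM in RD LFPKO livers, against 69090 to 71410 TPM in RD WT livers. On HFD they summed to 66750 to 91170 TPM in LFKO, 43690 to 63840 TPM in LPKO and 40260 to 54290 TPM in LFPKO livers, against 41390 to 54460 TPM in WT livers. In whole liver fewer cells of a type and less RNA per cell cannot be told apart. In all 24 libraries the 5 adipocyte markers summed to at most 1.06 TPM and the 5 striated muscle markers to at most 0.987 TPM. TPM keeps no record of read depth, so the depth behind each value is unknown. Within groups, libraries correlated at 0.970 to 0.991 over the genes tested.

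The sequences below show why 2 pairs of mitochondrial genes cannot be told apart at their shared ends. mt-Atp8 (GRCm38 mitochondrial chromosome, bases 7766 to 7969, plus strand) overlaps mt-Atp6 (bases 7927 to 8607) by 43 bases, and mt-Nd4l (bases 9877 to 10173) overlaps mt-Nd4 (bases 10167 to 11544) by 7 bases. Capitals mark the bases shared with the partner gene, in the GENCODE M21 transcripts.
mt-Atp8: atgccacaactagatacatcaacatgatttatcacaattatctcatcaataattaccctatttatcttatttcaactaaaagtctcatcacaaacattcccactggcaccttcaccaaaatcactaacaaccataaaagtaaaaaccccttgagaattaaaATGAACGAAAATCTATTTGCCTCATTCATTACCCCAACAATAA
mt-Nd4l: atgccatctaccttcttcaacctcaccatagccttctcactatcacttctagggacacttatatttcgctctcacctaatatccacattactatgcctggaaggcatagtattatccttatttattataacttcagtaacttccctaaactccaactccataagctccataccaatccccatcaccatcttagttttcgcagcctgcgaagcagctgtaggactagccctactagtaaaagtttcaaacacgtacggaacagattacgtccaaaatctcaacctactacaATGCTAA

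The next sequences are the promoter windows of the 5 nuclear subunit genes called higher in RD LFKO against RD WT livers, running from 250 bases before to 50 after the annotated start (RefSeq, GRCm38.p6). Windows were found for 65 of the 80 nuclear members. Capitals mark matches, on either strand, to the 6 motifs searched.
Cox7b (chrX:106015450-106015749, plus strand): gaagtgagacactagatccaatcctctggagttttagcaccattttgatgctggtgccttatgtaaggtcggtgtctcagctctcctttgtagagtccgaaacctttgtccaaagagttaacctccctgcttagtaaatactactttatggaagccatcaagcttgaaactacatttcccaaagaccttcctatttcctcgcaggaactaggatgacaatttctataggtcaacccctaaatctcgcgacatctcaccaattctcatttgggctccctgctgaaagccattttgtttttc
Ndufc1 (chr3:51408906-51409205, minus strand): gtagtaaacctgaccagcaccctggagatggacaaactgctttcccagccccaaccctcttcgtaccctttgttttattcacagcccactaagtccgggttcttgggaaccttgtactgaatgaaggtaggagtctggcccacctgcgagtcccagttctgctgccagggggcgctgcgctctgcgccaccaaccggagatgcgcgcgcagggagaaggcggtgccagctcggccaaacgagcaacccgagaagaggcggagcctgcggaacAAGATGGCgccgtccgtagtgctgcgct
Ndufs3 (chr2:90904672-90904971, minus strand): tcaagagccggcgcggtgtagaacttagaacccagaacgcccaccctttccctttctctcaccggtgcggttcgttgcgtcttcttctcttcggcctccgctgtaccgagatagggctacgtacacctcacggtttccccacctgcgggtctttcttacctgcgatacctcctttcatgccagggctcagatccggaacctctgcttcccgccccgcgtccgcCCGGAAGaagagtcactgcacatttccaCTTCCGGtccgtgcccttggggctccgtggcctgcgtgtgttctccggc
Ndufs4 (chr13:114388045-114388344, minus strand): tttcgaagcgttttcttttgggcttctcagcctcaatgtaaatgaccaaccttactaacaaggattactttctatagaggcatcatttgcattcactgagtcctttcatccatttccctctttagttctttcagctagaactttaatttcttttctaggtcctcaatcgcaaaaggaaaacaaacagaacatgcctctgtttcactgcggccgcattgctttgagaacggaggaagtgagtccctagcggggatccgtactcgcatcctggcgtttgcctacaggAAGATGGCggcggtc
Ndufv2 (chr17:66101510-66101809, minus strand): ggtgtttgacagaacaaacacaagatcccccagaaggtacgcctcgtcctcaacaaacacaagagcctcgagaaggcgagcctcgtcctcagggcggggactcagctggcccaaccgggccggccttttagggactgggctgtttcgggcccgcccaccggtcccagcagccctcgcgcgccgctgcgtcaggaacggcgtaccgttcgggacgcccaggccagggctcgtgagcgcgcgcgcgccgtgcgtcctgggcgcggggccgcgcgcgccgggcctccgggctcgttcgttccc

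The Ndufc1 and Ndufs4 windows each held 1 match to the YY1 motif AAGATGGC, the Ndufs3 window held 2 matches to the ETS motif CCGGAAG bound by GABPA, and the Cox7b and Ndufv2 windows held none of the 6. Over the 65 member windows, 24.6% held the NRF1 motif (GCGCA, any base, GCGC), 24.6% the ETS motif and 13.8% the YY1 motif. Among all 27025 windows the shares were 4.78% for NRF1, 9.12% for ETS and 2.88% for YY1. The ERR motif TCAAGGTCA was in 3.08% of member windows and 0.407% of all windows. The PPAR motif (AGGTCA repeated after any base) was in 0 of the 65 member windows and in 12 of all 27025 windows (0.0444%). A motif this rare was unlikely to be found in 65 windows, so its absence says nothing about PPARα sites. The FoxO motif GTAAACA was in 1.54% of member windows and 3.55% of all windows. NRF1, GABPA, YY1 and ERRα are factors known to act on respiratory chain promoters; these matches are descriptions of the letters in the windows.

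The 13 mitochondrial genes together made up 15.7% to 23.4% of the listed TPM of a library, and the 80 nuclear genes 1.05% to 2.17%. Averaged over the 24 libraries, mt-Atp8 had the highest level at 33710 TPM and mt-Co1, the largest complex IV subunit, had 23720 TPM. The only subunit gene on the other strand, mt-Nd6, had 57.3 TPM. How well poly(A) selection captured each message was not tested, so the low mt-Nd6 value may not measure its amount in liver. Of nuclear genes, Atp5b, the catalytic beta subunit of ATP synthase, had the highest mean at 683 TPM, and the lowest in its complex was Atp5g2, a copy of the membrane ring subunit, at 24.5 TPM. In complex I the highest was Ndufa4 at 537 TPM, a protein now placed with complex IV, and the lowest Ndufa4l2, its paralogue, at 3.59 TPM. In complex II the 4 genes were close together, with Sdhb, the iron-sulfur subunit, at 194 TPM and Sdhd, a membrane anchor, at 158 TPM. In complex III Uqcrq was highest at 463 TPM and Uqcrc1, a core subunit, lowest at 69.7 TPM. In complex IV Cox6a1 was highest at 455 TPM and Cox7a1, a paralogue known from heart and skeletal muscle, lowest at 2.25 TPM.

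The ratio of the summed mitochondrial to the summed nuclear messages separated the RD knockout libraries from RD WT. It was 9.69, 8.61 and 8.72 in RD LFKO, 9.94, 10.2 and 9.47 in RD LPKO, 8.97, 8.26 and 11.3 in RD LFPKO and 11.4, 13.3 and 13.9 in RD WT livers. All 9 RD knockout libraries lay below the 3 RD WT libraries, though the highest LFPKO library and the lowest WT library nearly met. On the log2 scale the group means differed from RD WT by -0.51 in LFKO, -0.38 in LPKO and -0.45 in LFPKO livers, and the SD within groups, pooled over the 8, was 0.202.

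On the high-fat diet the knockouts did not lie below WT. The ratio was 16.6, 13.9 and 12.8 in HFD LFKO, 14.5, 14.1 and 16.1 in HFD LPKO, 20.6, 12.5 and 14.4 in HFD LFPKO and 17.1, 15.9 and 12.5 in HFD WT livers. The 4 groups overlapped, and the differences from HFD WT on the log2 scale were -0.07 in LFKO, -0.02 in LPKO and 0.04 in LFPKO livers, all smaller than the pooled SD. HFD LFPKO replicate 1 had the highest ratio of the 24 libraries; without it the LFPKO difference was -0.16.

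Set against the regular diet, the ratio was higher on HFD in each knockout genotype without overlap, with differences of 0.67 in LFKO, 0.59 in LPKO and 0.72 in LFPKO livers on the log2 scale. In WT livers the difference was 0.23 and the diets overlapped, since HFD WT replicate 3 at 12.5 lay below 2 of the RD WT libraries. Because it divides sums within a library, the ratio does not depend on how libraries are scaled. No test is given for it, since it is a score over the members.

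**Figure D1:**
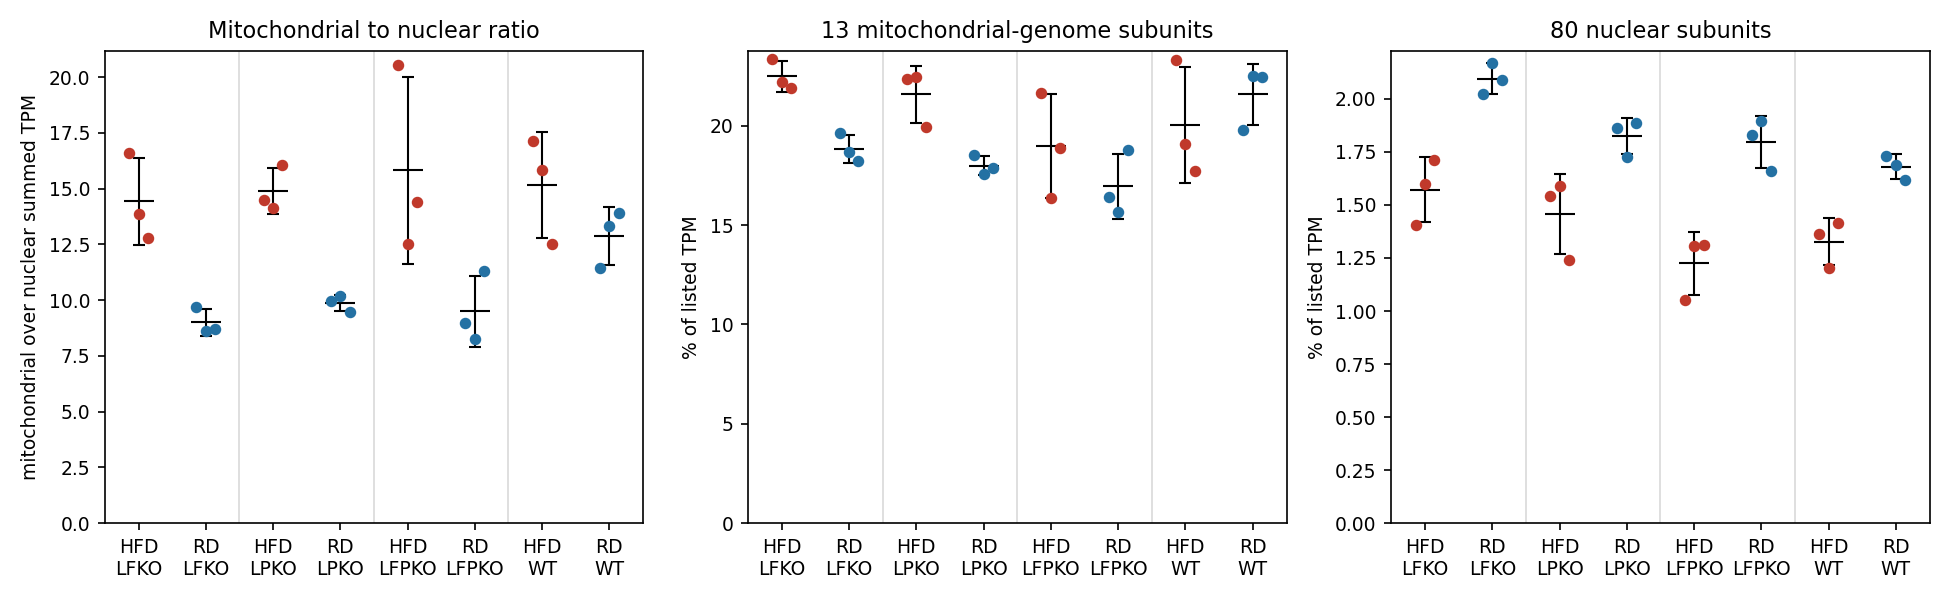
Left, ratio of summed mitochondrial to summed nuclear TPM; middle and right, share of listed TPM (%) of the 13 mitochondrial-genome and the 80 nuclear subunit genes. Points are libraries (red HFD, blue RD), bars the group mean ± SD (n = 3). The 9 RD knockout ratios lie below 11.4, the lowest RD WT value, and nuclear shares are lower on HFD than on RD in each genotype.

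In LFKO livers on the regular diet the nuclear subunit genes stood above WT together. All 80 had a positive log2 fold change, with a median of 0.31 against 0.03 over all genes tested, and 5 of 80 were called higher and 0 lower, where 1.07% of all genes were called higher and 0.597% lower. Of the 13 mitochondrial genes 12 had a negative fold change, with a median of -0.18, and none was called by limma. Of the 13, 4 had an unadjusted p under 0.05, beside 1637 of all 10551 genes.

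The 5 genes were Cox7b, a small complex IV subunit, and the complex I genes Ndufc1, Ndufs3, Ndufs4 and Ndufv2, of which Ndufs3 and Ndufv2 belong to the catalytic core and Ndufs4 to the supernumerary subunits whose loss causes complex I deficiency. Cox7b had 340, 335 and 347 TPM in RD LFKO livers, against 248, 254 and 225 TPM in RD WT livers. The groups did not overlap, and the log2 fold change was 0.49 ± 0.11 (SE, n = 3 each, limma adjusted p = 0.0331). Ndufs4 had 112, 118 and 123 TPM in RD LFKO livers, against 82.9, 86.8 and 81.6 TPM in RD WT livers. Its fold change was 0.48 ± 0.12, without overlap (adjusted p = 0.0451). Ndufc1 had 172, 184 and 169 TPM in RD LFKO livers, against 124, 129 and 108 TPM in RD WT livers (0.54 ± 0.14, adjusted p = 0.0494). Ndufv2 had 141, 141 and 130 TPM in RD LFKO livers, against 101, 107 and 100 TPM in RD WT livers (0.42 ± 0.09, adjusted p = 0.0132). Ndufs3 had 76.3, 80.8 and 77.3 TPM in RD LFKO livers, against 58.0, 62.5 and 60.1 TPM in RD WT livers (0.37 ± 0.09, adjusted p = 0.0497). In all 5 the LFKO libraries were above every WT library, which restates the calls, as the genes were picked by the fit of these libraries. The hepatocyte markers summed higher in RD LFKO than in RD WT livers without overlap, though 0 of the 6 were called and their median fold change was -0.03; their part in the nuclear values was not tested. The number of calls was sensitive to the fit: median-of-ratios scaling gave 20 nuclear genes called higher (2.5% of all genes), a fit of the 2 groups alone 32, and leaving out any 1 of the 6 libraries 0 or 1.

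**Figure D2:**
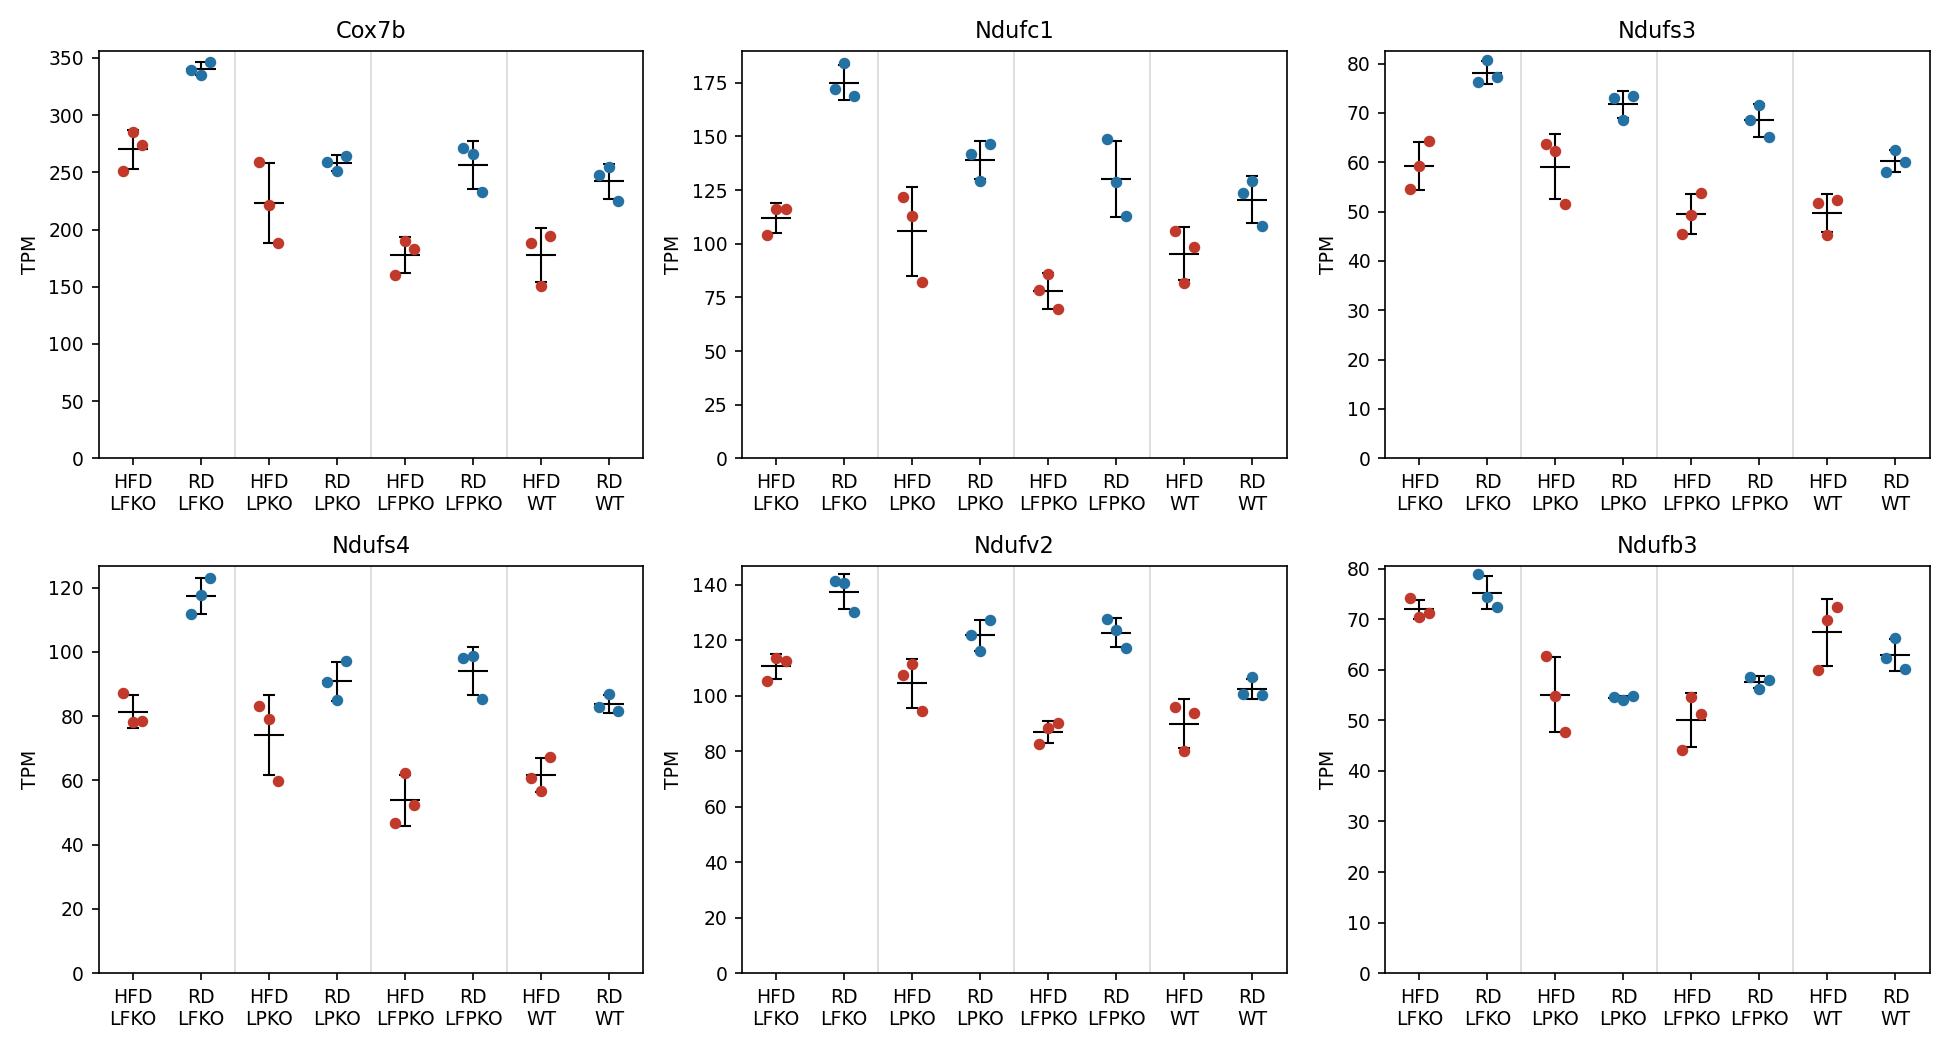
TPM of the 5 nuclear genes called higher in RD LFKO against RD WT livers and of Ndufb3, by group. Points are libraries (red HFD, blue RD), bars the group mean ± SD (n = 3). Cox7b is above WT in LFKO livers on both diets, with 335 to 347 TPM in RD LFKO and 225 to 254 TPM in RD WT livers.

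In LPKO livers on the regular diet no member was called by limma, where 3.52% of all genes were called higher and 2.33% lower. The unadjusted p was under 0.05 for 8 mitochondrial and 8 nuclear members, beside 1984 of all 10551 genes. Median log2 fold changes were -0.31 for the mitochondrial and 0.13 for the nuclear genes, and the smallest adjusted p were those of mt-Cytb (-0.41 ± 0.13, adjusted p = 0.0623), Ndufv2 (0.25 ± 0.09, adjusted p = 0.107) and mt-Nd4 (-0.39 ± 0.14, adjusted p = 0.111). Without RD WT replicate 1, 2 members were called.

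In LFPKO livers on the regular diet 4 of 13 mitochondrial genes were called lower and none of the 80 nuclear genes was called. Of all genes, 4% were called higher and 3.45% lower. An unadjusted p under 0.05 was found for 5 nuclear genes, beside 2298 of all 10551 genes. mt-Nd5, a proton-pumping subunit of complex I, had 3014, 2667 and 3617 TPM in RD LFPKO livers, against 3832, 5505 and 5703 TPM in RD WT livers. The lowest WT library was close to the highest LFPKO library, and the log2 fold change was -0.68 ± 0.16 (adjusted p = 0.0122). mt-Cytb, cytochrome b, had 11290, 10340 and 12520 TPM in RD LFPKO livers, against 14420, 18320 and 17050 TPM in RD WT livers, without overlap (-0.54 ± 0.13, adjusted p = 0.0103). The others were mt-Nd4 (-0.55 ± 0.14, adjusted p = 0.0181) and mt-Nd4l (-0.60 ± 0.15, adjusted p = 0.0193). These 2 genes are neighbours that share 7 bases, as printed above, and the values do not show whether they are read from separate messages. The 2 calls are therefore not taken as independent of each other. Median log2 fold changes were -0.31 for the mitochondrial and 0.10 for the nuclear genes. The 4 calls were also made after median-of-ratios scaling (5.62% of all genes lower). Without RD WT replicate 2 or RD LFPKO replicate 2 none was called, without RD WT replicate 3 there was 1 and without RD LFPKO replicate 1 there were 2; a fit of the 2 groups alone called 0, and one with no filter on low values 1.

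The 10 Kupffer cell markers, genes of the resident liver macrophages, summed to 123 to 173 TPM in RD LFKO, 91.3 to 127 TPM in RD LPKO and 81.0 to 154 TPM in RD LFPKO livers, against 159 to 258 TPM in RD WT livers. In the fit 1 of the 10 was called lower in RD LFKO livers and none in RD LPKO or RD LFPKO livers. Their part in the mitochondrial values was not tested. The 9 immediate early genes, which respond quickly to stimuli, summed to 113.5 to 159.9 TPM in RD LFKO and 90.8 to 153.9 TPM in RD LPKO livers. In RD WT livers they summed to 54.52 to 79.05 TPM, without overlap with either, and in RD LFPKO livers to 48.84 to 92.49 TPM, with overlap. Whether the handling of the livers differed between groups was not tested. The 3 RD comparisons share the RD WT libraries, so the mitochondrial values of the 3 genotypes are not independent of each other.

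On the high-fat diet the LFKO livers again had higher nuclear subunit genes, but here most genes moved the same way. Of 80 nuclear genes 13 were called higher and 0 lower, where 12.7% of all genes were called higher and 0.73% lower, and the nuclear median of 0.26 stood beside a median of 0.21 over all genes tested. After median-of-ratios scaling, which brought the median of all genes to -0.01, the nuclear median was 0.00 and Cox7b alone was called higher (2.23% of all genes higher). Cox7b had 252, 285 and 274 TPM in HFD LFKO livers, against 188, 151 and 194 TPM in HFD WT livers, without overlap. Its log2 fold change was 0.61 ± 0.11 (adjusted p = 0.00365), and 0.36 after scaling (adjusted p = 0.036). The next highest were Uqcrb of complex III (0.47 ± 0.12, adjusted p = 0.0163), Sdhd (0.47 ± 0.13, adjusted p = 0.0254), the ATP synthase stalk gene Atp5pb (0.45 ± 0.11, adjusted p = 0.0122) and Cox6b1 of complex IV (0.45 ± 0.12, adjusted p = 0.0185). Of the 13 mitochondrial genes 0 were called, with 3 at an unadjusted p under 0.05, beside 3359 of all 10551 genes. The count was 37 without HFD LFKO replicate 1, 1 without HFD LFKO replicate 2, HFD LFKO replicate 3 or HFD WT replicate 2, and 0 with the 2 groups alone in the fit.

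Mup genes encode the urinary proteins that mouse liver secretes in bulk. They made up 6.51% to 17.7% in HFD LFKO, 12.5% to 26.1% in HFD LPKO and 20.3% to 28.5% in HFD LFPKO livers, against 20.1% to 30.7% in HFD WT livers. Their share on the regular diet was 5.06% to 14.4%. As TPM values sum to a fixed total, a larger Mup share leaves a smaller total for the other genes together. The values after scaling are given for that reason, and the part of the Mup share in the values as deposited was not tested.

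In HFD LPKO livers no member was called by limma against HFD WT, where 3.6% of all genes were called higher and 1.13% lower. An unadjusted p under 0.05 was found for 14 nuclear and 0 mitochondrial members, beside 2091 of all 10551 genes. The smallest adjusted p were those of Ndufa4l2 (0.78 ± 0.25, adjusted p = 0.0747), Atp5pb (0.32 ± 0.11, adjusted p = 0.0804) and Ndufb3 (-0.29 ± 0.10, adjusted p = 0.0929). Without HFD LPKO replicate 3, 8 members were called. After scaling Ndufb3 was the 1 member called in HFD LPKO livers, lower by limma (-0.43, adjusted p = 0.0337), where 3.29% of all genes were called lower. In HFD LFPKO livers 1 nuclear gene was called lower and 0 members higher, where 1.47% of all genes were called lower and 1.62% higher. It was Ndufb3, a membrane-arm subunit of complex I, with 44.2, 54.7 and 51.3 TPM in HFD LFPKO livers, against 60.0, 69.8 and 72.4 TPM in HFD WT livers. The groups did not overlap (-0.42 ± 0.10, adjusted p = 0.0175), and after scaling the fold change was -0.52 (adjusted p = 0.011) and 7 nuclear genes were called lower (3.44% of all genes). The call was lost with the 2 groups alone in the fit, without HFD WT replicate 2 or 3 or without HFD LFPKO replicate 1, and 2 members were called without HFD LFPKO replicate 3.

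The double knockout was next set against each single knockout, which gives the values for losing PPARα without FoxO1 and FoxO1 without PPARα. On the regular diet 0 mitochondrial genes were called in LFPKO against LFKO livers, with 1 at an unadjusted p under 0.05, beside 1776 of all 10551 genes. In that comparison 3.13% of all genes were called lower and 1.95% higher, and 3 nuclear genes were called lower. They were Ndufb3 with 58.5, 56.2 and 58.0 TPM in RD LFPKO livers, against 78.8, 74.5 and 72.4 TPM in RD LFKO livers (-0.38 ± 0.10, adjusted p = 0.0272), Ndufb4 (-0.43 ± 0.12, adjusted p = 0.0403) and Cox7b (-0.41 ± 0.11, adjusted p = 0.0404). Neither Ndufb3 nor Cox7b overlapped between the groups. Of the 3, Cox7b was also called after scaling, while Ndufb3 (adjusted p = 0.0805) and Ndufb4 (adjusted p = 0.0601) were not; scaling gave 6 lower in all (4.56% of all genes). Leaving out RD LFKO replicate 1 or 2 or RD LFPKO replicate 2 or 3 gave 0 and RD LFKO replicate 3 gave 1. Against RD LPKO no member was called by limma, where 0.019% of all genes were called higher and 0.104% lower. An unadjusted p under 0.05 was found for 1 member, beside 549 of all 10551 genes.

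On the high-fat diet 33 of 80 nuclear genes were called lower in LFPKO than in LFKO livers, where 8.74% of all genes were called lower and 1.85% higher. Of 13 mitochondrial genes 0 were called, with 4 at an unadjusted p under 0.05, beside 2711 of all 10551 genes. By complex the 33 nuclear genes were 13 of 38 of complex I, 3 of 4 of complex II, 3 of 8 of complex III, 4 of 13 of complex IV and 10 of 17 of complex V. The nuclear median was -0.37, against -0.13 over all genes, and after scaling -0.21, against 0.00, with 10 called lower (6.08% of all genes). Among the lowest were Sdhc, a membrane anchor of complex II (-0.72 ± 0.20, adjusted p = 0.0263), Cox7b (-0.60 ± 0.11, adjusted p = 0.0015), Ndufs4 (-0.60 ± 0.12, adjusted p = 0.00223) and Sdhd (-0.58 ± 0.13, adjusted p = 0.00648), and these 4 were also called after scaling, with adjusted p of at most 0.031. The summed hepatocyte markers were also lower in HFD LFPKO than in HFD LFKO livers without overlap, with 1 of 6 called lower and a median of -0.28, and their part was not tested. The count was 61 without HFD LFKO replicate 1, 8 without HFD LFKO replicate 2, 7 without HFD LFKO replicate 3, 8 without HFD LFPKO replicate 1 and 0 with the 2 groups alone in the fit. Against HFD LPKO no member was called by limma, where 0.0663% of all genes were called higher and 0.284% lower. An unadjusted p under 0.05 was found for 37 nuclear and 3 mitochondrial members, beside 1105 of all 10551 genes. Without HFD LPKO replicate 3, 11 members were called, and without HFD LFPKO replicate 3 there was 1.

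**Figure D3:**
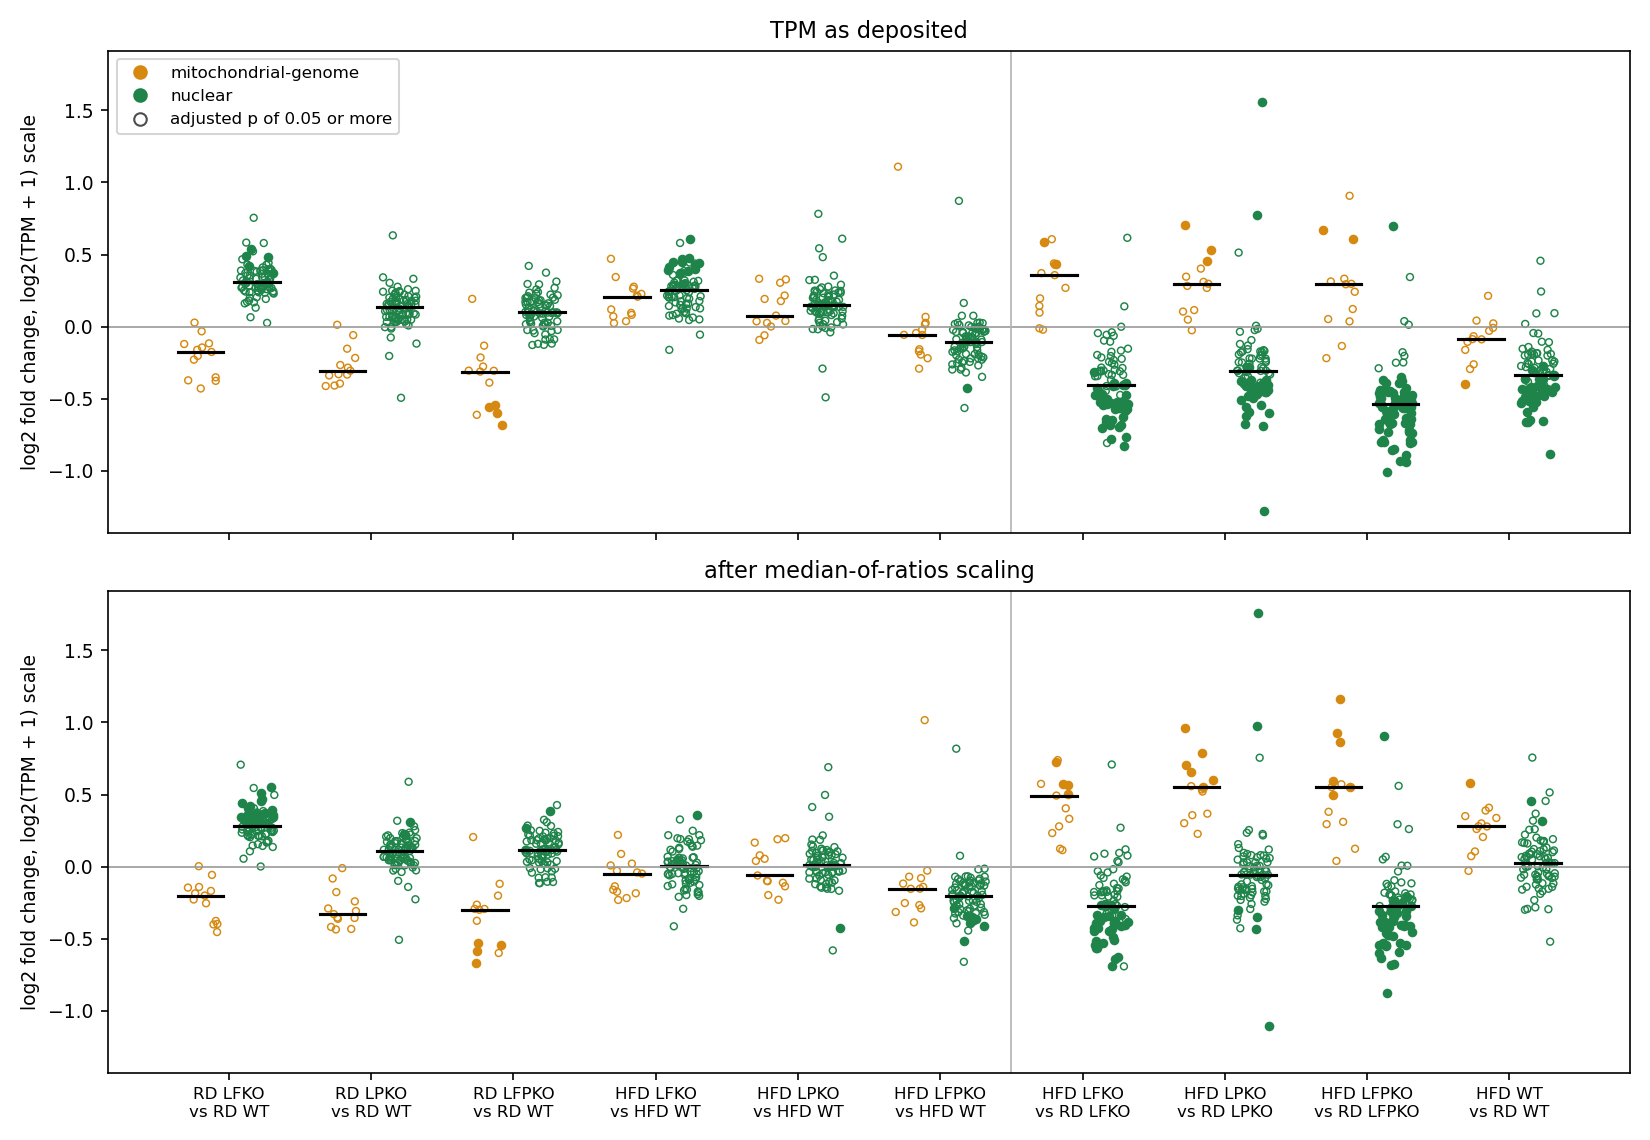
Log2 fold changes of the 13 mitochondrial (orange) and 80 nuclear (green) subunit genes in 10 comparisons, on the log2(TPM + 1) scale, from TPM as deposited (top) and after median-of-ratios scaling (bottom). Filled points have an adjusted p under 0.05 and bars are medians. In HFD against RD the mitochondrial medians lie above the nuclear medians in all 4 genotypes, while the nuclear median in WT moves to 0.03 from -0.34 with scaling.

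Many nuclear subunit genes were lower and a few mitochondrial ones higher in knockout livers on the high-fat diet than on the regular diet. Nuclear genes called lower were 40 of 80 in LFKO, 30 in LPKO, 70 in LFPKO and 39 in WT livers, and 24 of these genes were shared by all 4. Calls shared by all 4 were not counted over all genes, so the 24 have no such share beside them. Of all genes, 8.34% were called lower in LFKO, 17.3% in LPKO, 24.9% in LFPKO and 29.8% in WT livers. Median log2 fold changes of the nuclear genes were -0.41 in LFKO, -0.31 in LPKO, -0.53 in LFPKO and -0.34 in WT livers, beside -0.11, -0.22, -0.23 and -0.29 over all genes. In WT livers the nuclear genes lay near the median of all genes.

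After scaling, which brought the median of all genes to between -0.01 and 0.02, 35 nuclear genes were called lower in LFKO (6.39% of all genes), 4 in LPKO (3.7%), 39 in LFPKO (8.38%) and 0 in WT livers (3.53%), where 2 were called higher (4.44%). The scaled nuclear medians were -0.27 in LFKO, -0.06 in LPKO, -0.28 in LFPKO and 0.03 in WT livers. The genes called lower in LFKO and in LFPKO livers after scaling had 30 in common, from complexes I to V. Calls shared by these 2 comparisons were not counted over all genes, so this overlap is not set apart from that of other genes.

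The terms for a different diet effect in a knockout than in WT gave 0 called members in LFKO, LPKO and LFPKO livers by limma, both as deposited and after scaling. Of all genes, 0.00948% were called in LFKO, 0.171% in LPKO and 0.0284% in LFPKO livers as deposited, and 0.019%, 0.474% and 0.209% after scaling. The members at an unadjusted p under 0.05 depended on the scaling. As deposited they were 6 mitochondrial and 0 nuclear genes in LFKO, 7 and 2 in LPKO, and 2 and 7 in LFPKO livers. After scaling they were 0 mitochondrial and 36 nuclear genes in LFKO, 1 and 5 in LPKO, and 0 and 48 in LFPKO livers. Of all 10551 genes, 1292 in LFKO, 852 in LPKO and 796 in LFPKO livers were under that level as deposited. After scaling this was not counted over all genes, so the scaled member counts have no such share beside them. The mitochondrial medians of these terms were 0.39 in LFKO, 0.41 in LPKO and 0.36 in LFPKO livers as deposited, with all 13 genes positive in each, and 0.16, 0.29 and 0.25 after scaling, with 12, 13 and 12 positive. The nuclear medians were -0.08, 0.01 and -0.22 as deposited and -0.30, -0.10 and -0.32 after scaling. The terms of the 3 genotypes share the WT libraries.

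Genes with the lowest fold changes included Sdhc in all 4 genotypes, at -0.83 ± 0.20 in LFKO (adjusted p = 0.0161), -0.68 ± 0.20 in LPKO (adjusted p = 0.0284), -0.94 ± 0.20 in LFPKO (adjusted p = 0.00275) and -0.88 ± 0.20 in WT livers (adjusted p = 0.00535). After scaling Sdhc was called in LFKO (-0.69, adjusted p = 0.012) and LFPKO livers (-0.68, adjusted p = 0.0095). Atp5e, the epsilon subunit of the ATP synthase stalk, was called at -0.76 ± 0.14 in LFKO (adjusted p = 0.00263), -0.62 ± 0.14 in LPKO (adjusted p = 0.00651), -0.85 ± 0.14 in LFPKO (adjusted p = 3.76e-04) and -0.66 ± 0.14 in WT livers (adjusted p = 0.0029). Uqcr10 of complex III fell in all 4 genotypes, by 0.70 ± 0.12 in LFKO (adjusted p = 0.00258), 0.69 ± 0.12 in LPKO (adjusted p = 0.00191), 0.80 ± 0.12 in LFPKO (adjusted p = 2.83e-04) and 0.52 ± 0.12 in WT livers (adjusted p = 0.00655) on the log2 scale, and after scaling it was called in the 3 knockouts. Atp5mpl, a small membrane subunit of ATP synthase, also fell in all 4, with -0.65 ± 0.12 in LFKO (adjusted p = 0.00303), -0.55 ± 0.12 in LPKO (adjusted p = 0.00619), -0.89 ± 0.12 in LFPKO (adjusted p = 9.93e-05) and -0.65 ± 0.12 in WT livers (adjusted p = 0.00151), and after scaling it was called in LFKO and LFPKO livers. The others among the 5 lowest were Atp5g1 and Ndufb2 in LFKO, Ndufb6 in LPKO, Ndufc2 and Cox7c in LFPKO, and Ndufa4 and Ndufa7 in WT livers, at -0.60 to -0.93.

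Ndufa4 shows how large these differences were against the spread. It had 474, 507 and 515 TPM in HFD LFKO livers, against 748, 799 and 758 TPM in RD LFKO livers. In WT livers it had 390, 303 and 427 TPM on HFD, against 611, 593 and 553 TPM on RD. Neither pair overlapped, and in WT livers the fold change was -0.66 ± 0.13 (adjusted p = 0.00196) as deposited and -0.29 (adjusted p = 0.0987) after scaling.

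Of the 6 hepatocyte markers 1 was called lower on HFD in LFKO, 0 in LPKO, 3 in LFPKO and 3 in WT livers; their sums did not overlap between the diets in LFPKO and WT livers, and their part in the nuclear values was not tested. Cytosolic ribosomal protein genes were lower on HFD as well. Of 78 tested, 55 were called lower in LFKO, 49 in LPKO, 66 in LFPKO and 67 in WT livers, and after scaling 47, 4, 50 and 12. Of mitochondrial ribosomal protein genes, 8 of 80 were called lower in LFKO, 14 in LPKO, 39 in LFPKO and 18 in WT livers, where the shares of all genes called lower were 8.34%, 17.3%, 24.9% and 29.8%, so all but the LFPKO count were near or below those shares; after scaling there were 4, 0, 7 and 0, with 7 called higher in WT livers. The summed nuclear subunit messages divided by the summed cytosolic ribosomal protein messages gave 0.869 to 0.961 in HFD LFKO against 0.839 to 0.906 in RD LFKO livers, and 0.763 to 0.849 in HFD LFPKO against 0.770 to 0.791 in RD LFPKO livers, so the diets overlapped in both. In WT livers that ratio was 0.846 to 0.904 on HFD and 0.710 to 0.840 on RD, higher on HFD without overlap, and in LPKO livers 0.783 to 0.926 on HFD and 0.807 to 0.873 on RD, with overlap. Divided by the summed mitochondrial ribosomal protein messages, the values were 6.09 to 6.35 in HFD LFKO against 6.91 to 7.16 in RD LFKO livers, and 5.73 to 5.74 in HFD LFPKO against 6.28 to 6.83 in RD LFPKO livers, without overlap. In LPKO livers they were 6.15 to 6.50 on HFD and 6.70 to 6.83 on RD, and in WT livers 5.92 to 6.24 on HFD and 6.38 to 6.73 on RD, also without overlap.

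Leaving out a library changed the diet counts. In LFKO livers 42 members were called in all and 15, 20, 13 and 25 without RD LFKO replicate 2, RD LFKO replicate 3, HFD LFKO replicate 1 and HFD LFKO replicate 2; the 2 groups alone gave 20. In LPKO livers the 35 calls became 12, 10 and 9 without RD LPKO replicate 1, RD LPKO replicate 3 and HFD LPKO replicate 3, and 15 with the 2 groups alone. In LFPKO livers the 73 became 45 without HFD LFPKO replicate 1 and 42 with the 2 groups alone. In WT livers the 40 became 23, 25 and 8 without RD WT replicate 2, RD WT replicate 3 and HFD WT replicate 2.

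Mitochondrial genes were called higher on HFD in 2 of 13 cases in LFKO, 3 in LPKO and 2 in LFPKO livers, where 1.11%, 0.777% and 1.35% of all genes were called higher. In WT livers 0 were called higher and mt-Co3 was called lower (-0.40 ± 0.10, adjusted p = 0.0111), but its fold change was -0.03 after scaling. mt-Nd5 was called in all 3 knockouts. It had 5736, 5779 and 5958 TPM in HFD LFKO livers, against 3979, 3729 and 3905 TPM in RD LFKO livers, without overlap (0.59 ± 0.16, adjusted p = 0.0287). In LPKO livers it had 5685, 5769 and 4725 TPM on HFD, against 3474, 3894 and 3777 TPM on RD (0.53 ± 0.16, adjusted p = 0.0307). In LFPKO livers it had 5646, 4260 and 4258 TPM on HFD, against 3014, 2667 and 3617 TPM on RD (0.61 ± 0.16, adjusted p = 0.0108). In each knockout the HFD libraries were above every RD library, which restates the calls from the same values. mt-Cytb was the other in LFKO (0.44 ± 0.13, adjusted p = 0.0346), mt-Nd3 (0.71 ± 0.21, adjusted p = 0.0258) and mt-Atp8 (0.46 ± 0.15, adjusted p = 0.0441) in LPKO, and mt-Nd3 (0.67 ± 0.21, adjusted p = 0.0231) in LFPKO livers.

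After scaling 4 mitochondrial genes were called higher in LFKO (3.92% of all genes), 6 in LPKO (2.75%), 6 in LFPKO (4.74%) and 1, mt-Nd5, in WT livers (4.44%), with medians of 0.49, 0.55, 0.55 and 0.28. mt-Nd5, mt-Nd4 and mt-Cytb were among them in each knockout. mt-Nd3, a short gene, varied more between libraries, from 2137 to 5891 TPM over the 24, and mt-Nd6 from 29.6 to 120 TPM.

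The mitochondrial genes did not move by equal amounts. The 12 genes read from the same strand as mt-Nd1 were ordered by their start, and Spearman's rho between start and log2 fold change against RD WT was -0.713 in RD LFKO, -0.804 in RD LPKO and -0.832 in RD LFPKO livers. For HFD against RD it was 0.545 in LFKO, 0.657 in LPKO, 0.622 in LFPKO and 0.357 in WT livers. These are descriptions over 12 genes of the same RNA molecules in the same libraries, the RD knockout comparisons share the WT libraries, and base composition and length differ between the genes. In RD LFKO livers the first 3 genes, mt-Nd1, mt-Nd2 and mt-Co1, had fold changes of 0.03, -0.23 and -0.03, the next 5, mt-Co2, mt-Atp8, mt-Atp6, mt-Co3 and mt-Nd3, -0.18, -0.16, -0.20, -0.12 and -0.12, and the last 4, mt-Nd4l, mt-Nd4, mt-Nd5 and mt-Cytb, -0.37, -0.38, -0.35 and -0.43. The order was not strict, since mt-Nd2 lay below the 5 genes that follow mt-Co1.

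The ratio of mt-Nd5 to mt-Co1, which needs no scaling, was 0.146 to 0.165 in RD LFKO, 0.137 to 0.159 in RD LPKO and 0.119 to 0.151 in RD LFPKO livers, against 0.176 to 0.198 in RD WT livers. On HFD it was 0.218 to 0.250 in LFKO, 0.217 to 0.222 in LPKO, 0.217 to 0.263 in LFPKO and 0.238 to 0.282 in WT livers. All 12 HFD libraries lay above all 12 RD libraries, and on RD the knockouts lay below WT. This ratio was chosen after the fold changes had been seen, so it describes the same pattern again. Whether read coverage of these genes differed between the diets was not tested.

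**Figure D4:**
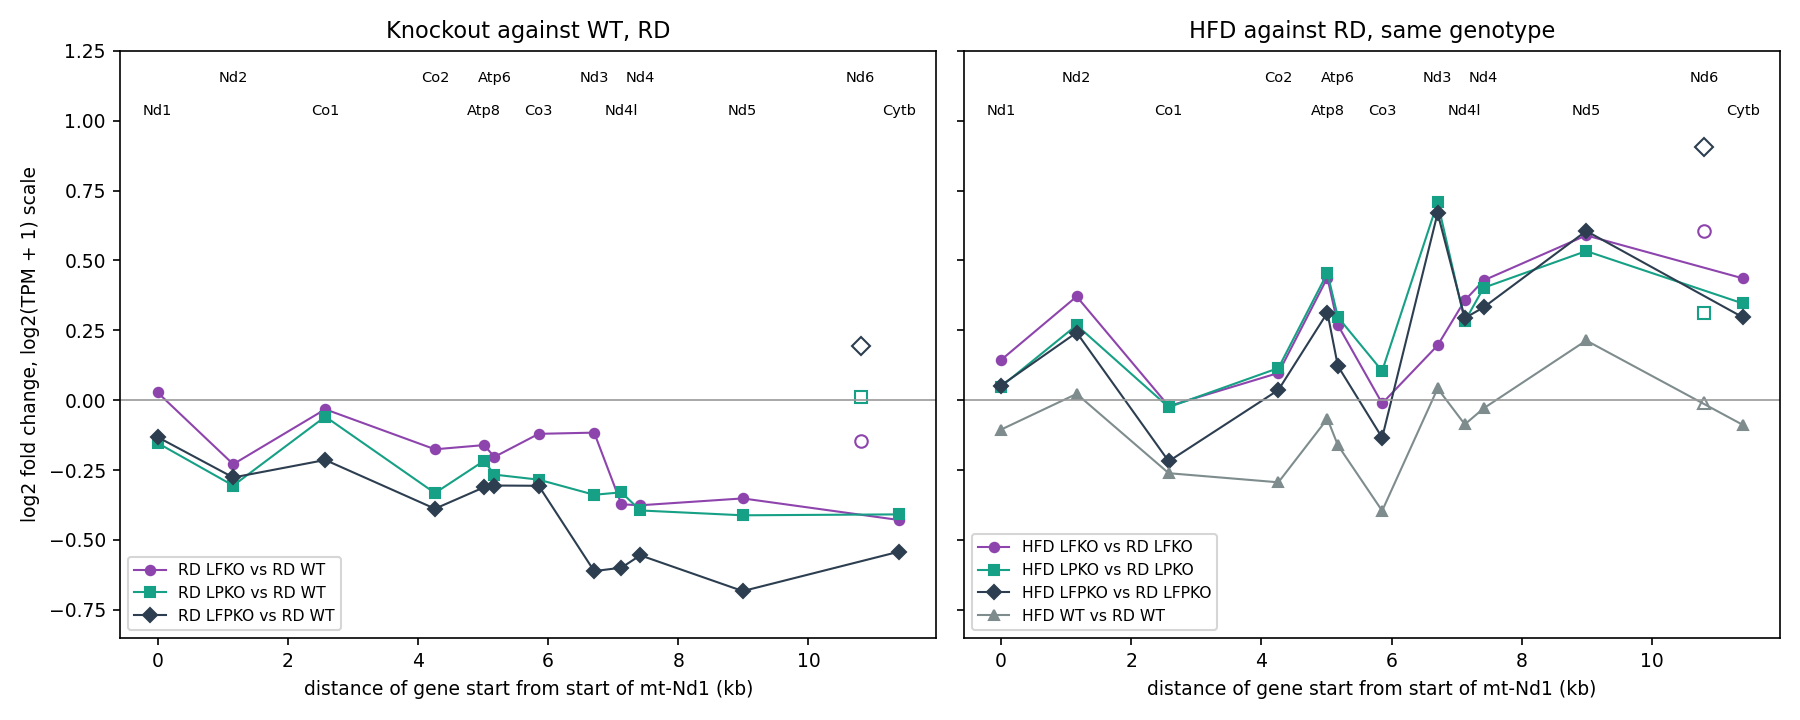
Log2 fold changes of the 13 mitochondrial genes, on the log2(TPM + 1) scale, against the distance of each gene's start from the start of mt-Nd1 (kb), in RD knockouts against RD WT (left) and HFD against RD (right). Lines join the 12 genes read from the same strand, and open symbols are mt-Nd6. Values fall along the order on the left, to -0.68 for mt-Nd5 in RD LFPKO, and tend to be higher toward the end on the right.

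The mix of complexes within the mitochondrial messages differed by diet. The 3 complex IV genes mt-Co1, mt-Co2 and mt-Co3 made up 28.2% to 32.6% of the mitochondrial sum in the 12 HFD libraries, against 33.3% to 36.5% in the 12 RD libraries. The diets did not overlap in any genotype. The ATP synthase genes mt-Atp6 and mt-Atp8 made up 30.5% to 34.5% on HFD and 29.7% to 32.0% on RD, and the 7 complex I genes 28.1% to 31.6% on HFD and 26.0% to 28.7% on RD, so these overlapped. mt-Atp8 relative to mt-Atp6 stood at 1.15 to 1.49 on HFD and 1.07 to 1.18 on RD, with overlap. These genes share bases, as printed above, so reads from the shared end cannot be assigned with certainty. Their ratio is therefore not a measure of separate message amounts. Whether read coverage or assignment differed between the diets was not tested, for this ratio or for the shares of the complexes. These shares were computed after the gene values had been seen and carry no test. The nuclear messages kept a closer mix: complex IV genes made up 20.8% to 22.3% of the nuclear sum on HFD and 21.2% to 22.5% on RD, and complex V genes 29.8% to 31.4% on HFD and 30.5% to 31.6% on RD.

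**Figure D5:**
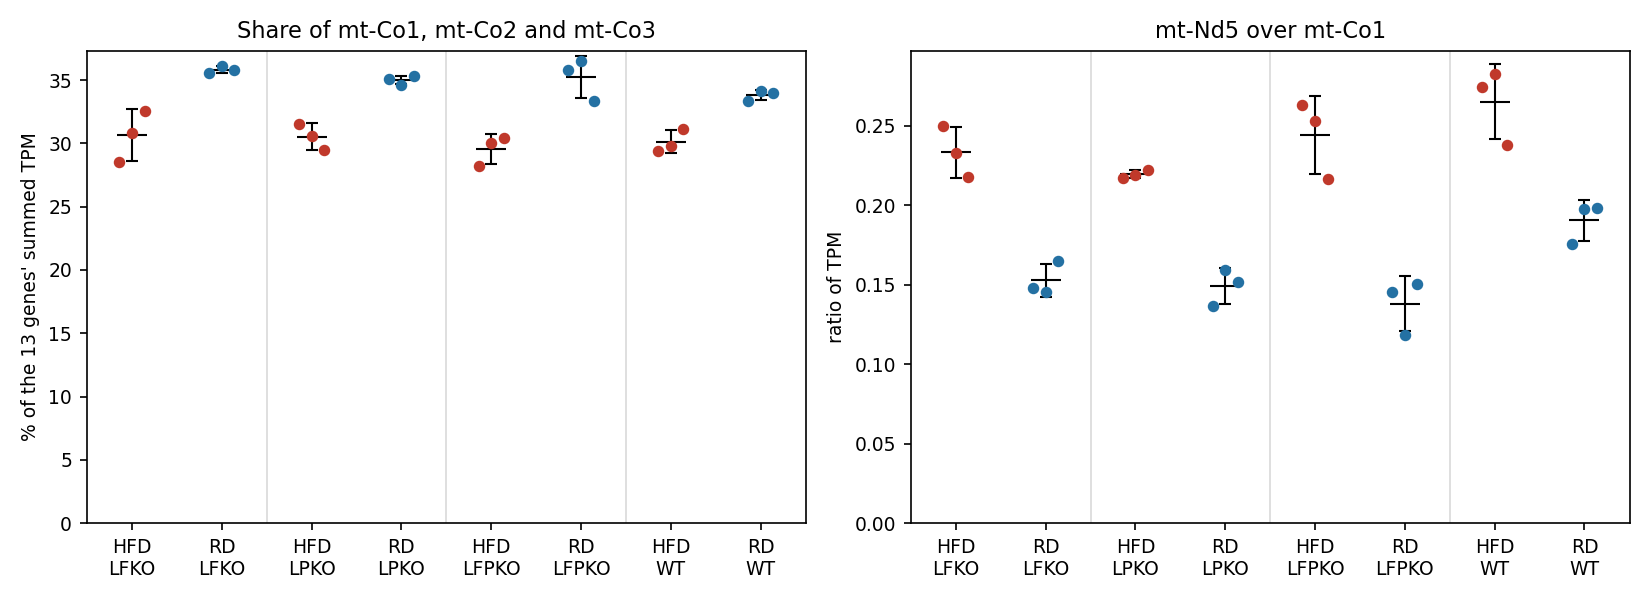
Left, share of the 13 mitochondrial genes' summed TPM (%) taken by mt-Co1, mt-Co2 and mt-Co3; right, TPM of mt-Nd5 divided by TPM of mt-Co1. Points are libraries (red HFD, blue RD), bars the group mean ± SD (n = 3). The complex IV share is at most 32.6% in HFD libraries and at least 33.3% in RD libraries.

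Split by complex, the ratio of mitochondrial to nuclear sums in RD knockouts against RD WT differed most in complex III, where the mitochondrial gene is mt-Cytb. It was 4.15 to 4.79 in RD LFKO, 5.17 to 5.57 in RD LPKO and 4.20 to 5.81 in RD LFPKO livers, against 6.34 to 8.25 in RD WT livers. For complex I it was 8.04 to 8.91 in RD LFKO, 8.92 to 9.72 in RD LPKO and 7.31 to 10.3 in RD LFPKO livers, against 10.99 to 13.6 in RD WT livers. For complex IV it was 14.2 to 15.9 in RD LFKO, 15.5 to 16.3 in RD LPKO and 13.7 to 17.8 in RD LFPKO livers, against 16.9 to 21.6 in RD WT livers. For complex V it was 8.31 to 9.62 in RD LFKO, 9.04 to 9.90 in RD LPKO and 8.12 to 11.7 in RD LFPKO livers, against 11.6 to 13.4 in RD WT livers. The LFPKO and WT ranges overlapped in complexes IV and V, and no other of these 12 pairs did.

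Several subunits have tissue-specific or rare paralogues, and in these livers the widely expressed copy carried nearly all of the signal. Of the copies below the level needed for the tests, Cox6b2, known from testis, had a mean of 0.244 TPM, Cox8b 0.0686 TPM and Cox6a2, known from muscle, 0.0663 TPM, and Cox8c was listed at 0 in all libraries. Cox7a1 was called lower on HFD in LPKO and LFPKO livers. It had 0.262, 1.34 and 1.35 TPM in HFD LPKO livers, against 4.90, 2.85 and 3.36 TPM in RD LPKO livers, without overlap (-1.28 ± 0.27, adjusted p = 0.00477). In LFPKO livers it had 0.318, 1.015 and 1.246 TPM on HFD, against 2.41, 2.08 and 3.65 TPM on RD (-1.01 ± 0.27, adjusted p = 0.0102); that call was lost without RD LFPKO replicate 3 or HFD LFPKO replicate 1, and both calls were also made after scaling. Ndufa4l2, known in other tissues as a hypoxia-responsive gene, was called higher on HFD in LPKO livers, with 5.06, 5.96 and 5.16 TPM against 3.64, 3.23 and 1.63 TPM on RD (0.78 ± 0.25, adjusted p = 0.038). In LFPKO livers it had 5.96, 6.09 and 5.34 TPM on HFD, against 3.39, 2.42 and 3.92 TPM on RD (0.69 ± 0.25, adjusted p = 0.0457). Both calls were also made after scaling. The LPKO call was lost when any 1 library but RD LPKO replicate 2 was left out, and the LFPKO call when any 1 but RD LFPKO replicate 3 was. These levels are low, and so are sensitive to counting error that TPM does not show.

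Reads of close copies cannot be assigned with certainty. Ndufb4c, annotated as a processed pseudogene of Ndufb4 in GENCODE M21, had a mean of 189 TPM, and Ndufb4 itself 20.1 TPM, so the Ndufb4 call above is uncertain. Cox7c-ps1, a pseudogene row, was called higher in HFD LPKO than RD LPKO livers at 8.12, 13.2 and 8.47 TPM against 2.73, 2.19 and 3.03 TPM (1.56 ± 0.25, adjusted p = 8.61e-04), and reads from Cox7c may be among its reads.

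Genes that serve the respiratory chain were read beside the subunits. Of 45 assembly factors, 1 was called higher and 0 lower in RD LFKO against RD WT livers. Of all genes, 1.07% were called higher and 0.597% lower there. The factor called was Sdhaf4, an assembly factor of complex II (0.56 ± 0.14, adjusted p = 0.0413). In HFD LFPKO against HFD LFKO livers, where 8.74% of all genes were called lower, 0 were called higher and 6 lower (3 after scaling, against 6.08% of all genes), the complex III factor Uqcc1 (-0.65 ± 0.13, adjusted p = 0.00187) and the complex IV factor Cox16 (-0.41 ± 0.09, adjusted p = 0.0054) among them. Of 9 electron carriers and other donors to coenzyme Q, 6 were called lower in the same comparison and 5 after scaling, with Etfdh, which passes electrons from fatty acid oxidation to coenzyme Q, at -1.73 ± 0.11 (adjusted p = 1.65e-09), Etfb at -1.40 ± 0.15 (adjusted p = 3.00e-06) and Cycs, cytochrome c, at -0.49 ± 0.11 (adjusted p = 0.00798). Of 17 mitochondrial fatty acid oxidation genes 16 were called lower there as deposited and 16 after scaling, with a median of -1.32 as deposited. Of 14 citric acid cycle genes 7 were called lower, with a median of -0.39, and 4 after scaling, with a median of -0.23.

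Of 27 genes for mitochondrial DNA maintenance, transcription and RNA processing, 0 were called in RD LFKO against RD WT livers and 1 in RD LPKO, Pnpt1, a mitochondrial RNA exonuclease, which was higher (0.40 ± 0.12, adjusted p = 0.0462). In RD LFPKO against RD WT livers Pnpt1 was higher (0.41 ± 0.12, adjusted p = 0.0366) and 2 genes were lower. The lower genes were Polg, for the mitochondrial DNA polymerase (-0.49 ± 0.13, adjusted p = 0.0203), and Hsd17b10 (-0.49 ± 0.14, adjusted p = 0.0351). Hsd17b10 encodes a subunit of mitochondrial RNase P. Of all genes, 3.52% were called higher and 2.33% lower in RD LPKO, and 4% higher and 3.45% lower in RD LFPKO livers. Counts this small cannot set the list apart from those shares. In HFD LFKO against HFD WT livers, where 12.7% of all genes were called higher, 2 of the 27 were called higher and 0 after scaling. They were Tfam, the mitochondrial transcription factor (0.55 ± 0.14, adjusted p = 0.0163), and Mtpap, the mitochondrial poly(A) polymerase (0.29 ± 0.09, adjusted p = 0.0343). In HFD LFPKO against HFD LFKO livers 5 of the 27 were called lower (8.74% of all genes) and 2 after scaling (6.08% of all genes). Among the 5 were Tfam (-0.51 ± 0.14, adjusted p = 0.0197) and Slirp, which stabilises mitochondrial messages (-0.39 ± 0.10, adjusted p = 0.0171). Of 8 regulators of respiratory chain genes, Pprc1, a coactivator related to PGC-1α, was called lower (-0.67 ± 0.16, adjusted p = 0.0145) and Gabpa higher (0.41 ± 0.13, adjusted p = 0.0397) in HFD LFKO against HFD WT livers, and after scaling 1 was called lower and 0 higher. None of the 8 was called by limma in RD LFKO, RD LPKO or RD LFPKO against RD WT livers, where the smallest adjusted p was 0.389, for Pprc1 in RD LFKO livers.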

How the data were processed

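RNA of 24 mouse liver libraries was measured by strand-marked poly(A) RNA sequencing, per the labels' protocols. The authors deposited gene-level TPM values, made with kallisto on GRCm38 (mm10) per the submitters' processing notes; no source used here gives the kallisto version or the annotation. The listed TPM summed to 956785 to 993524 per library, and the row with no gene name held 0.0104% to 0.0250%. TPM keeps no depth, so no counting intervals are given.

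Genes with a mean of at least 1 TPM were kept (10551 of 34945 named genes), and log2(TPM + 1) was fitted on group means with limma 3.58.1 in R 4.3.3 (trended prior, 16 residual degrees of freedom) over all libraries. The 17 comparisons were 6 of knockout with wild type, 4 of double with single knockout, 4 of diet and 3 genotype-by-diet terms, with Benjamini-Hochberg adjustment over all genes in each. The model recovered planted changes in simulated libraries with independent noise. Those changes were larger than most fold changes of the members, and no shift of library composition was simulated. The simulation therefore does not check the calls reported here or how scaling moved them. With 3 libraries a group, an exact permutation test of a single value cannot go below p = 0.1, so summed levels and ratios are described without a test.

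The genes named were all mitochondrial members; in each comparison up to 5 highest and 5 lowest called nuclear members, or the 3 smallest adjusted p where fewer than 3 were called; the highest and lowest member of each complex; paralogues and pseudogene rows; Foxo1 and Ppara; and up to 4 genes per list. The values of 1 member that this rule names are not reported here. The members and gene lists were chosen with earlier results of these data known. Ratios between single mitochondrial genes and the shares of complexes were chosen after the gene values were seen. Alternatives were another pseudocount, filter or scaling, a replicate block, the compared groups alone, and leaving out each library.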

Additional observations from a re-analysis of the deposited data

How the results depend on the processing

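The counts of members called moved with the fit, and the cause was not tested. A pseudocount of 0.1 gave 2 in RD LFKO against RD WT (5 as reported). With no filter on low values there were 3 in RD LFKO, 1 in RD LFPKO (4) and 7 in HFD LFKO (13) against WT, 1 in RD LFPKO against RD LFKO (3) and 20 in HFD LPKO against RD LPKO (35). A mean of at least 5 TPM gave 3 in RD LFKO and 1 in RD LPKO (0) against RD WT. Median-of-ratios scaling gave 20 in RD LFKO, 2 in RD LPKO, 1 in HFD LFKO, 1 in HFD LPKO (0) and 7 in HFD LFPKO (1) against WT, 6 in RD LFPKO against RD LFKO, 10 in HFD LFPKO against HFD LFKO (33), and, for HFD against RD, 12 in LPKO, 46 in LFPKO (73) and 3 in WT livers (40). Rescaling without Mup and mitochondrial-genome genes gave 17 in RD LFKO, 9 in RD LPKO, 13 in RD LFPKO, 2 in HFD LFKO, 1 in HFD LPKO and 15 in HFD LFPKO against WT, 5 in RD LFPKO against RD LFKO, 11 in HFD LFPKO against HFD LFKO, 1 against HFD LPKO (0), 23 in LPKO and 10 in WT livers for HFD against RD, and 1 in the LFPKO by diet term (0). Fits of only the 2 groups compared gave 32 in RD LFKO, 1 in RD LPKO, 0 in RD LFPKO, 0 in HFD LFKO and 0 in HFD LFPKO against WT, 0 in HFD LFPKO against HFD LFKO, and 20 in LFKO (42), 15 in LPKO and 42 in LFPKO livers for HFD against RD; those fits have fewer degrees of freedom.

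Same-numbered libraries did not deviate together (median correlation of residuals -0.004 over 84 pairs, against 0.0007 over 168 pairs with other numbers), so the numbers were not taken to pair them. A replicate block gave 3 calls in RD LFKO against RD WT and 1 in RD LFPKO against RD LFKO, and moved no other count by over 1.5 times.

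Leaving out 1 library gave 0 to 1 calls in RD LFKO, 0 to 2 in RD LPKO, 0 to 4 in RD LFPKO, 1 to 37 in HFD LFKO, 0 to 8 in HFD LPKO and 0 to 2 in HFD LFPKO against WT. It gave 0 to 2 in RD LFPKO against RD LFKO, 7 to 61 in HFD LFPKO against HFD LFKO and 0 to 11 against HFD LPKO. For HFD against RD it gave 13 to 47 in LFKO, 9 to 38 in LPKO, 45 to 75 in LFPKO and 8 to 41 in WT livers. The log2 mitochondrial to nuclear ratio stayed negative in each RD knockout against RD WT (-0.60 to -0.46 in LFKO, -0.46 to -0.32 in LPKO, -0.58 to -0.35 in LFPKO) and positive for HFD against RD (0.57 to 0.75 in LFKO, 0.54 to 0.63 in LPKO, 0.51 to 0.87 in LFPKO, 0.13 to 0.36 in WT livers). In HFD LFPKO livers it ranged over -0.16 to 0.19 against HFD WT, -0.094 to 0.26 against HFD LFKO and -0.15 to 0.21 against HFD LPKO, negative without HFD LFPKO replicate 1, and the LFPKO by diet term over 0.28 to 0.64.

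Of the members called lower in HFD WT against RD WT livers, 7 had a fold change above 0 after median-of-ratios scaling or after rescaling, none of them called. On the log2 scale these were 0.0489 and 0.0480 for Atp5c1, 0.0666 and 0.0657 for Atp5o, 0.0027 and 0.0018 for Atp5pb, 0.0184 and 0.0174 for Ndufa9, 0.0260 and 0.0251 for Ndufb7, 0.0879 and 0.0870 for Ndufs3, and 0.0286 and 0.0277 for Ndufs5.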
